A study of Mus musculus with 12 samples.

Results

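Inguinal white fat, the subcutaneous fat pad of the groin, was compared between Mgl2-DTR mice and wild-type mice after diphtheria toxin. The arrays were chosen by the tissue and genotype in their labels, with no use of any measured value, which gave 4 of the 12 arrays of the series, 2 from Mgl2-DTR and 2 from wild-type mice. The other 8 arrays, of epididymal fat and liver, entered only the estimate of the spread and, for epididymal fat, the test of a difference between depots. All mice were male and on the C57BL/6N background, and those of both genotypes received intraperitoneal diphtheria toxin at 500 ng per dose every 3 days and were sampled on day 10. The labels give the Mgl2-DTR mice as depleted of CD301b-positive mononuclear phagocytes and the wild-type mice as intact. They do not give the number of copies of the allele, where the toxin receptor sits within Mgl2, or which other cells may carry it.

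Mgl2 encodes CD301b, a C-type lectin of a subset of dendritic cells and tissue macrophages, and the diphtheria toxin receptor placed under its control makes those cells sensitive to the toxin, which mouse cells otherwise resist. Fat is an organ of adipocytes, vessels, progenitors and resident immune cells. Its resident macrophages are known for scavenger receptors, complement C1q, MHC class II and secreted factors such as RELM-alpha, the product of Retnla. In whole tissue, fewer cells of a type and less RNA per cell cannot be told apart.

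The values are normalized log2 levels, and 12710 of 22180 genes were tested with limma, which estimates 1 spread per gene over all 6 groups. The threshold for a call was an adjusted p of 0.05, and genes whose mean lay at or under a log2 level of 5.71 in every tissue were not tested. Levels near or under 5.71 may sit at background, so a change that reaches under it is limited in size. Only 2 arrays per group limit the precision, and nothing in the labels says that these came from separate animals, so the p-values reflect only how much these samples vary, which may be technical. Across all probes, Pearson's r was 0.982 between the Mgl2-DTR arrays, 0.983 between the wild-type arrays and 0.977 to 0.983 between genotypes. Over all genes tested the median change was 0.10, with 70.7% of them higher, so a list's count of higher genes stands beside its count above that median. It was 0.042 after quantile normalization and 0.0044 after cyclic loess. Adipocyte markers stood above the filter level on all 4 arrays (5 of 5 found), the macrophage markers did too (8 of 8), and the B cell markers found (3) stood below it on all 4.

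Skeletal muscle RNA was present in 1 array of each genotype. Over 17 tested muscle genes the mean log2 level was 9.54 and 6.61 in replicates 1 and 2 of Mgl2-DTR fat, against 6.60 and 9.79 in those of wild-type fat. Acta1, the actin of skeletal muscle, stood at 11.96 and 8.50 in the Mgl2-DTR arrays, against 8.67 and 11.99 in the wild-type arrays. The muscle genes thus differ far more within a genotype than between the genotypes, where their median change was -0.038. Values of single arrays are given below as replicate 1 and replicate 2 of each genotype. The pair of muscle-bearing arrays is Mgl2-DTR replicate 1 against wild-type replicate 2, and the muscle-poor pair is Mgl2-DTR replicate 2 against wild-type replicate 1.

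In Mgl2-DTR fat the called genes included lectins, the 3 subunits of complement C1q and 3 chains of MHC class II, all lower, and 1 integrin, which was higher. Of the genes tested, 25 were called (0.197%), 24 lower (0.189%) and 1 higher (0.00787%). All 25 lay apart between the groups, meaning that both Mgl2-DTR values were on one side of both wild-type values, which held for 46.9% of all genes tested, 10.4% lower and 36.5% higher. Of all genes tested 29.3% were lower by any size, and an unadjusted p under 0.05 was reached by 881 genes (6.93%). With the groups apart, 102 genes were at least 2-fold lower (0.803%) and 25 at least 2-fold higher (0.197%). Of the 24 that fell, 8 ended under the filter level in Mgl2-DTR fat. The count rests on the arrays kept: 6 genes were called without wild-type replicate 2, namely Retnla, Cd209g, C1qc, Fcrls, Ccl8 and Mgl2, and 16 without Mgl2-DTR replicate 1. With each inguinal array left out in turn, those 6 were called in all 4 fits, while Clec10a, Slc40a1, Abca9, Slc9a9 and Ms4a14 were called in none of them. With the 4 inguinal arrays alone 4 genes were called, and with both fat depots and no liver 9.

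**Figure D1:**
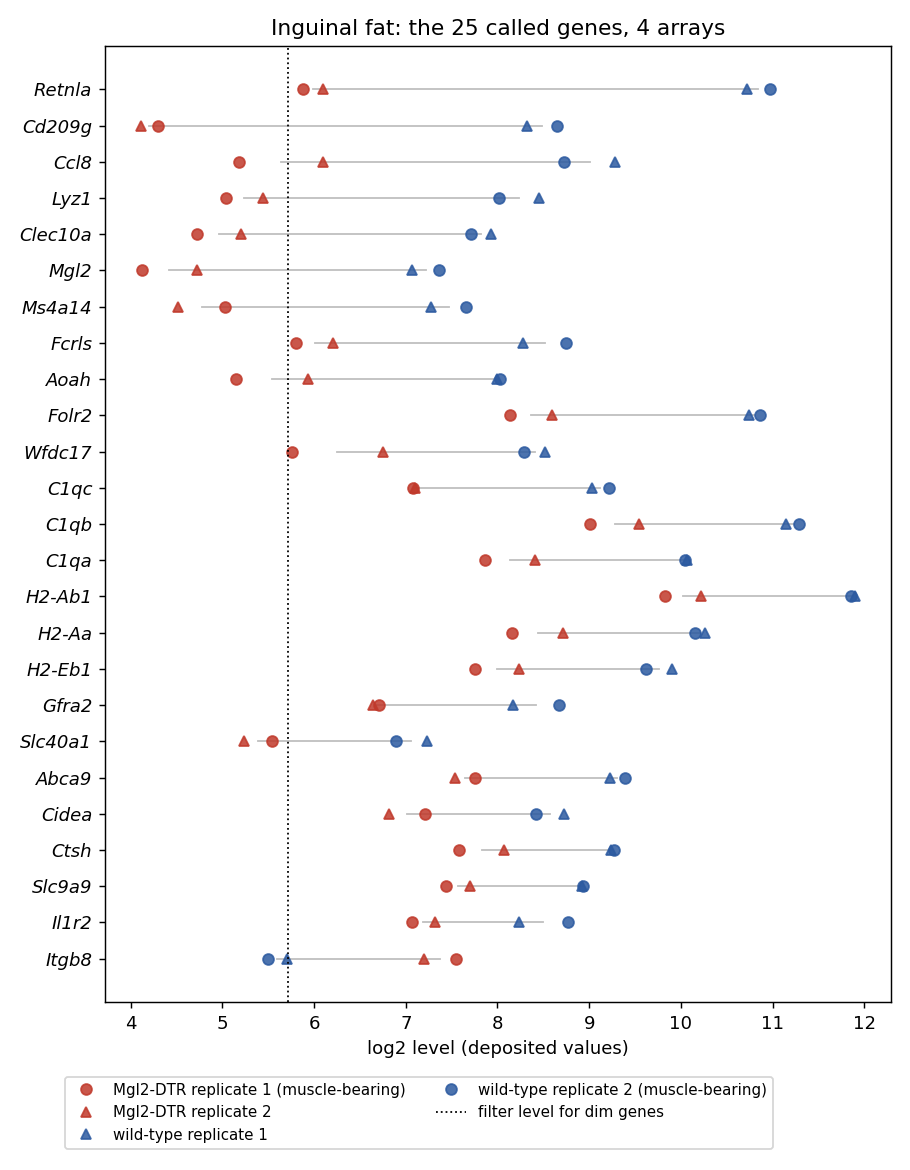
Log2 level of the 25 called genes (rows, ordered by change) on each of the 4 inguinal arrays. Red symbols are Mgl2-DTR and blue symbols wild-type arrays, circles mark the muscle-bearing array of each genotype, grey lines join the group means, and the dotted line is the filter level of 5.71. The 24 upper genes have both red symbols left of both blue ones, and Itgb8 has them on the right.

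The C-type lectins that mark the targeted cells were among the genes that fell. Mgl2 stood at 4.12 and 4.72 in Mgl2-DTR fat, against 7.07 and 7.36 in wild-type fat (change -2.80, SE 0.24; limma adjusted p = 0.00199). Its relative Clec10a, which encodes CD301a, stood at 4.72 and 5.21 in Mgl2-DTR fat, against 7.93 and 7.71 in wild-type fat (-2.85, SE 0.41; adjusted p = 0.029). Both lectins were above the filter level on the wild-type arrays and below it on both Mgl2-DTR arrays. Clec10a missed the threshold when any 1 inguinal array was left out, at an adjusted p of 0.0868 to 0.246. Mgl2 and Clec10a are close relatives, and whether their probes share RNA was not tested. Mgl2 is also the gene altered in these mice. A change of its own transcript by the allele and a loss of cells cannot be told apart here.

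Of 16 genes listed for CD301b cells and type 2 dendritic cells, 13 were tested, 11 were lower and 2 were called, with a median change of -0.72 against 0.10 over all genes. Clec4a3 and Clec4a1, C-type lectins of myeloid cells, had changes of -1.63 and -1.77 and were not called, nor was Kmo (-0.61). The list's mean level was 6.11 and 6.78 in Mgl2-DTR fat, against 7.41 and 7.43 in wild-type fat. Other genes used to describe dendritic cells stood closer together. The receptor Cd209a was at 9.03 and 9.22 in Mgl2-DTR fat, against 9.75 and 9.12 in wild-type fat. Zbtb46, a transcription factor of classical dendritic cells, was at 6.97 and 6.67 in Mgl2-DTR fat, against 6.53 and 6.81 in wild-type fat. In both genes the genotypes overlapped. Of 7 genes listed for type 1 dendritic cells 4 were tested, with a median change of 0.35, 3 of them higher and none called.

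Among genes of resident, alternatively activated macrophages, Retnla showed the largest change of any gene tested. It stood at 5.88 and 6.09 in Mgl2-DTR fat, against 10.72 and 10.97 in wild-type fat (-4.86, SE 0.39; limma adjusted p = 0.00179). Cd209g, a lectin of the DC-SIGN family, stood at 4.30 and 4.11 in Mgl2-DTR fat, against 8.32 and 8.65 in wild-type fat (-4.28, SE 0.31; adjusted p = 0.00179). The arrays of a genotype differed by under 0.4 in both genes, while the genotypes were over 4 log2 units apart.

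Ccl8, a chemokine, stood at 5.18 and 6.10 in Mgl2-DTR fat, against 9.28 and 8.73 in wild-type fat (-3.37, SE 0.30; adjusted p = 0.00203). Fcrls, an Fc receptor-like gene of mouse tissue macrophages, stood at 5.80 and 6.21 in Mgl2-DTR fat, against 8.28 and 8.75 in wild-type fat (-2.51, SE 0.20; adjusted p = 0.00179). Folr2, a folate receptor, stood at 8.13 and 8.59 in Mgl2-DTR fat, against 10.74 and 10.86 in wild-type fat (-2.43, SE 0.24; adjusted p = 0.00425). Folr2 thus kept a level well above the filter in Mgl2-DTR fat, unlike Ccl8. The secreted protein gene Wfdc17 fell as well, at 5.76 and 6.75 in Mgl2-DTR fat, against 8.52 and 8.29 in wild-type fat (-2.15, SE 0.28; adjusted p = 0.016).

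Of the 24 genes of this list, 20 were tested, 19 were lower and 6 were called, and the median change was -1.18. The list was drawn up with earlier results of these data known, so its count is no independent evidence of its direction. Several of its members that were not called were also apart. They included the haptoglobin-haemoglobin receptor Cd163 (-2.52), the coagulation factor gene F13a1 (-1.90) and the mannose receptor Mrc1 (-1.36). Lyve1, also used as a marker of vessel-associated macrophages and of lymphatic endothelium, stood at 9.82 and 9.57 in Mgl2-DTR fat, against 9.06 and 10.69 in wild-type fat, with the groups overlapping. The exception was Arg1, which encodes arginase and is often used beside Retnla to mark alternative activation in mice. Arg1 stood at 7.43 and 7.90 in Mgl2-DTR fat, against 5.49 and 6.00 in wild-type fat, and was not called (1.92, SE 0.51; adjusted p = 0.481). The 2 genes thus lay apart in opposite directions. F13a1, Mrc1, Lyve1, Arg1, Cd209a and Zbtb46 were named after their values were seen.

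All 3 subunits of complement C1q, which start the classical complement pathway and are made by tissue macrophages, fell together. C1qc stood at 7.08 and 7.10 in Mgl2-DTR fat, against 9.03 and 9.21 in wild-type fat (-2.03, SE 0.17; limma adjusted p = 0.00179). C1qa stood at 7.86 and 8.41 in Mgl2-DTR fat, against 10.06 and 10.05 in wild-type fat (-1.92, SE 0.18; adjusted p = 0.00276). C1qb stood at 9.01 and 9.54 in Mgl2-DTR fat, against 11.15 and 11.29 in wild-type fat (-1.94, SE 0.21; adjusted p = 0.00576). The 3 changes were close to each other, at about 4-fold, and each subunit stayed above the filter level on every array.

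Of the 20 genes used for macrophages in general, all were tested, 18 were lower and these 3 were called, with a median change of -0.89. Csf1r, the receptor that macrophages need for growth and survival, came next at 7.86 and 8.60 in Mgl2-DTR fat, against 10.32 and 10.34 in wild-type fat (-2.10, SE 0.35; adjusted p = 0.0817). The mean level of the list was 7.74 and 8.52 in Mgl2-DTR fat, against 9.03 and 9.15 in wild-type fat. All 20 genes were lower in Mgl2-DTR replicate 1 than in Mgl2-DTR replicate 2, compared with 6671 of all 12710 genes tested. The median change was -0.48 in the muscle-poor pair and -1.43 in the pair of muscle-bearing arrays, and the part of muscle RNA in this was not tested. General macrophage genes thus differed between the Mgl2-DTR arrays by more than the wild-type arrays did, while C1qc and Retnla did not. Genes of lipid-associated macrophages stood closer to level. Of 14 listed 13 were tested, 9 were lower, 4 were higher and none was called, with a median change of -0.12. Among the lower ones, Mmp12 (-2.19) and Atp6v0d2 (-2.36) were apart.

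The promoters of Mgl2, Retnla and C1qc are shown because these genes fell together and share a short word. The word searched was GAGGAA on both strands, the core recognised by PU.1, the transcription factor of myeloid cells encoded by Spi1. The sequences run from 250 bases before to 50 bases after the gene start in RefSeq, build GRCm38.p6, on the strand of the gene. Capitals mark GAGGAA or its reverse complement.
Mgl2, chr11:70130107-70130406, plus strand: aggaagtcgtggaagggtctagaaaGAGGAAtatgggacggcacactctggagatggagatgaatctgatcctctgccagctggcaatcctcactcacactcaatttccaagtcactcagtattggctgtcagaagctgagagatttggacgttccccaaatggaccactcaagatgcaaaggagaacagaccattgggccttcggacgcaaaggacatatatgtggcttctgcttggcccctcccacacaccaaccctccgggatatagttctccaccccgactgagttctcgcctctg
Retnla, chr16:48842359-48842658, plus strand: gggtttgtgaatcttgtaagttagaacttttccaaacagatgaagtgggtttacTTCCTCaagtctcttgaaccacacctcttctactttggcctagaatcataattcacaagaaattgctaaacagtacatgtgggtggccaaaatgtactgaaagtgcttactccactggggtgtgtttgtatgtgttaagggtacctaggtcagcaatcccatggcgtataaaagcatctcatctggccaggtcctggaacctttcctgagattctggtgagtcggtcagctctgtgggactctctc
C1qc, chr4:136892865-136893164, minus strand: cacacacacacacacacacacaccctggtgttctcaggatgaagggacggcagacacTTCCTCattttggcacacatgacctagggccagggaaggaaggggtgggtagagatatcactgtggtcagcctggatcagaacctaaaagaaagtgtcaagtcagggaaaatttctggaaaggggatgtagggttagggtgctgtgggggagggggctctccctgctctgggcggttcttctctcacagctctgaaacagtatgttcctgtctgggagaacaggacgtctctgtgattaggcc
The match begins at -225 in Mgl2, -196 in Retnla and -193 in C1qc, counted from the gene start. Of the 24 genes that fell, 17 had an entry and 9 of these held the word (52.9%), against 28.3% of all 32851 promoters in the table. The first share counts genes and the second counts promoter entries, which were not limited to the genes tested. The others that held it were Fcrls, Ccl8, C1qb, Abca9, Wfdc17 and Ms4a14. A match is a description of the letters only. Spi1 itself stood at 6.75 and 7.20 in Mgl2-DTR fat, against 7.53 and 7.41 in wild-type fat, and was not called (-0.49; adjusted p = 0.82).

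MHC class II, which presents peptides to CD4 T cells, was lower as well. H2-Ab1, a beta chain, stood at 9.83 and 10.22 in Mgl2-DTR fat, against 11.90 and 11.85 in wild-type fat (-1.85, SE 0.20; limma adjusted p = 0.00576). Its partner H2-Aa stood at 8.15 and 8.72 in Mgl2-DTR fat, against 10.27 and 10.15 in wild-type fat (-1.77, SE 0.20; adjusted p = 0.00738). H2-Eb1 stood at 7.76 and 8.23 in Mgl2-DTR fat, against 9.90 and 9.62 in wild-type fat (-1.77, SE 0.21; adjusted p = 0.00963). The 3 chains fell by similar amounts and remained well above the filter level. H2-Aa was the 1 of the 3 that was also called without Mgl2-DTR replicate 1, and none of them was called without wild-type replicate 2.

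Of the 10 genes listed for this pathway 7 were tested, 6 were lower and 3 were called, with a median change of -0.997 (7 of 7 were lower after quantile normalization or cyclic loess). H2-DMa, which helps load peptides, gave that median, at -0.997, and was not called. Ciita, the master regulator of these genes, stood at 6.71 and 6.81 in Mgl2-DTR fat, against 7.53 and 6.94 in wild-type fat (-0.47; adjusted p = 0.81; named after its values were seen). The promoters of H2-Aa and H2-Eb1 are shown because class II genes share a known box. The word searched was TGATTGG on both strands, the Y box, and capitals mark it; neither it nor GAGGAA contains the other.
H2-Aa, chr17:34287774-34288073, minus strand: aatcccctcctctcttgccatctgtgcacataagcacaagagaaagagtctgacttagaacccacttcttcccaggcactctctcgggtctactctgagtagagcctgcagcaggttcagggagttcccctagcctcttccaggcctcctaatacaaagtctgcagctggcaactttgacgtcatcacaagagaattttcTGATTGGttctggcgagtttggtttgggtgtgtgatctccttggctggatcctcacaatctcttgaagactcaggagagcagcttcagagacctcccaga
H2-Eb1, chr17:34305617-34305916, plus strand: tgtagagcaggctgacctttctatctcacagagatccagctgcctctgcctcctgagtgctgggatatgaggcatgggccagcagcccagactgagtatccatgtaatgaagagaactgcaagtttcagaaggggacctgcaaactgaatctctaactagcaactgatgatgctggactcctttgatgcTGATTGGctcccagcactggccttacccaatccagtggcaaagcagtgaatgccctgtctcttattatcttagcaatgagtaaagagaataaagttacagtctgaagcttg
The match begins at -50 in H2-Aa and at -61 in H2-Eb1. It was present in 6 of the 7 listed class II genes with an entry (85.7%) and in 7.82% of all promoters, again counted by entry. This count describes the family and not the change.

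Lyz1, Aoah and Ctsh, which encode enzymes, also fell. Lyz1, a lysozyme, stood at 5.03 and 5.45 in Mgl2-DTR fat, against 8.45 and 8.02 in wild-type fat (-3.00, SE 0.35; limma adjusted p = 0.0082). With 1 inguinal array left out in turn, the change of Lyz1 was -3.21 to -2.78, and most of these fits did not keep its call. Lyz1 and Lyz2 are near-identical and may share RNA between probes, and Lyz2 stood at 10.22 and 10.75 in Mgl2-DTR fat, against 11.95 and 11.85 in wild-type fat (-1.42; adjusted p = 0.198; named after its values were seen). Aoah, which inactivates bacterial endotoxin, stood at 5.15 and 5.93 in Mgl2-DTR fat, against 7.99 and 8.03 in wild-type fat (-2.47, SE 0.26; adjusted p = 0.00574). The wild-type arrays agreed closely for Aoah, and its spread lay in the Mgl2-DTR arrays. Ctsh, a lysosomal protease, stood at 7.58 and 8.07 in Mgl2-DTR fat, against 9.24 and 9.27 in wild-type fat (-1.43, SE 0.22; adjusted p = 0.0433). Ctsh missed the threshold with no filter on dim genes (adjusted p = 0.0564), with the mean muscle level as a covariate (0.0621) and in 3 of the 4 fits with 1 inguinal array left out (up to 0.396).

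Slc40a1, Il1r2, Gfra2, Abca9, Slc9a9 and Ms4a14 fell too. The iron exporter Slc40a1 stood at 5.54 and 5.23 in Mgl2-DTR fat, against 7.23 and 6.89 in wild-type fat (-1.67, SE 0.23; limma adjusted p = 0.0261). Slc40a1 missed the threshold with that covariate (adjusted p = 0.0528) and without any 1 inguinal array (0.0917 to 0.194). It was the 1 called member of 12 listed iron and haem genes, of which 11 were tested and 8 were lower (11 after cyclic loess), with a median change of -0.35. Il1r2, a decoy receptor that binds interleukin 1, stood at 7.07 and 7.32 in Mgl2-DTR fat, against 8.24 and 8.76 in wild-type fat (-1.31, SE 0.18; adjusted p = 0.0268). Gfra2, a receptor for the neurotrophic factor neurturin, stood at 6.71 and 6.64 in Mgl2-DTR fat, against 8.17 and 8.67 in wild-type fat (-1.75, SE 0.22; adjusted p = 0.0111). Gfra2 was among the genes whose Mgl2-DTR arrays agreed most closely. With 1 inguinal array left out in turn, the change was -1.57 to -1.04 for Il1r2 and -1.99 to -1.50 for Gfra2. Most of these fits did not keep the call of either gene. The transporter gene Abca9 (-1.66), the endosomal exchanger gene Slc9a9 (-1.36) and the membrane protein gene Ms4a14 (-2.69) were the other 3.

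The 1 gene that rose was Itgb8, the integrin beta 8 subunit, whose pairing with the alpha v subunit is known to release active TGF-beta from its latent form. Itgb8 stood at 7.55 and 7.20 in Mgl2-DTR fat, against 5.70 and 5.49 in wild-type fat (1.78, SE 0.20; limma adjusted p = 0.00738). Both wild-type values lay under the filter level, so the size is limited by that floor. Itgb8 missed the threshold when Mgl2-DTR replicate 1 was left out (adjusted p = 0.0783), and likewise for wild-type replicate 2 (adjusted p = 0.1). It was 1 of 19 genes listed for TGF-beta and BMP signalling, of which 16 were tested and 10 were higher (10 above the median of all genes), with a median change of 0.20.

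Its partner Itgav stood at 9.37 and 9.37 in Mgl2-DTR fat, against 9.11 and 9.10 in wild-type fat, and was not called (0.27; adjusted p = 0.833; named after its values were seen). Of the TGF-beta ligands, Tgfb1 was at 8.42 and 8.33 in Mgl2-DTR fat, against 8.48 and 8.46 in wild-type fat. Tgfb2 was at 5.70 and 5.75 in Mgl2-DTR fat, against 6.24 and 6.29 in wild-type fat (-0.54; adjusted p = 0.678). Tgfb1 and Tgfb2 thus did not share the direction of Itgb8, and neither was called. The Mgl2-DTR values of Tgfb2 lay near the filter level. Tgfb1 was also named after its values were seen.

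**Figure D2:**
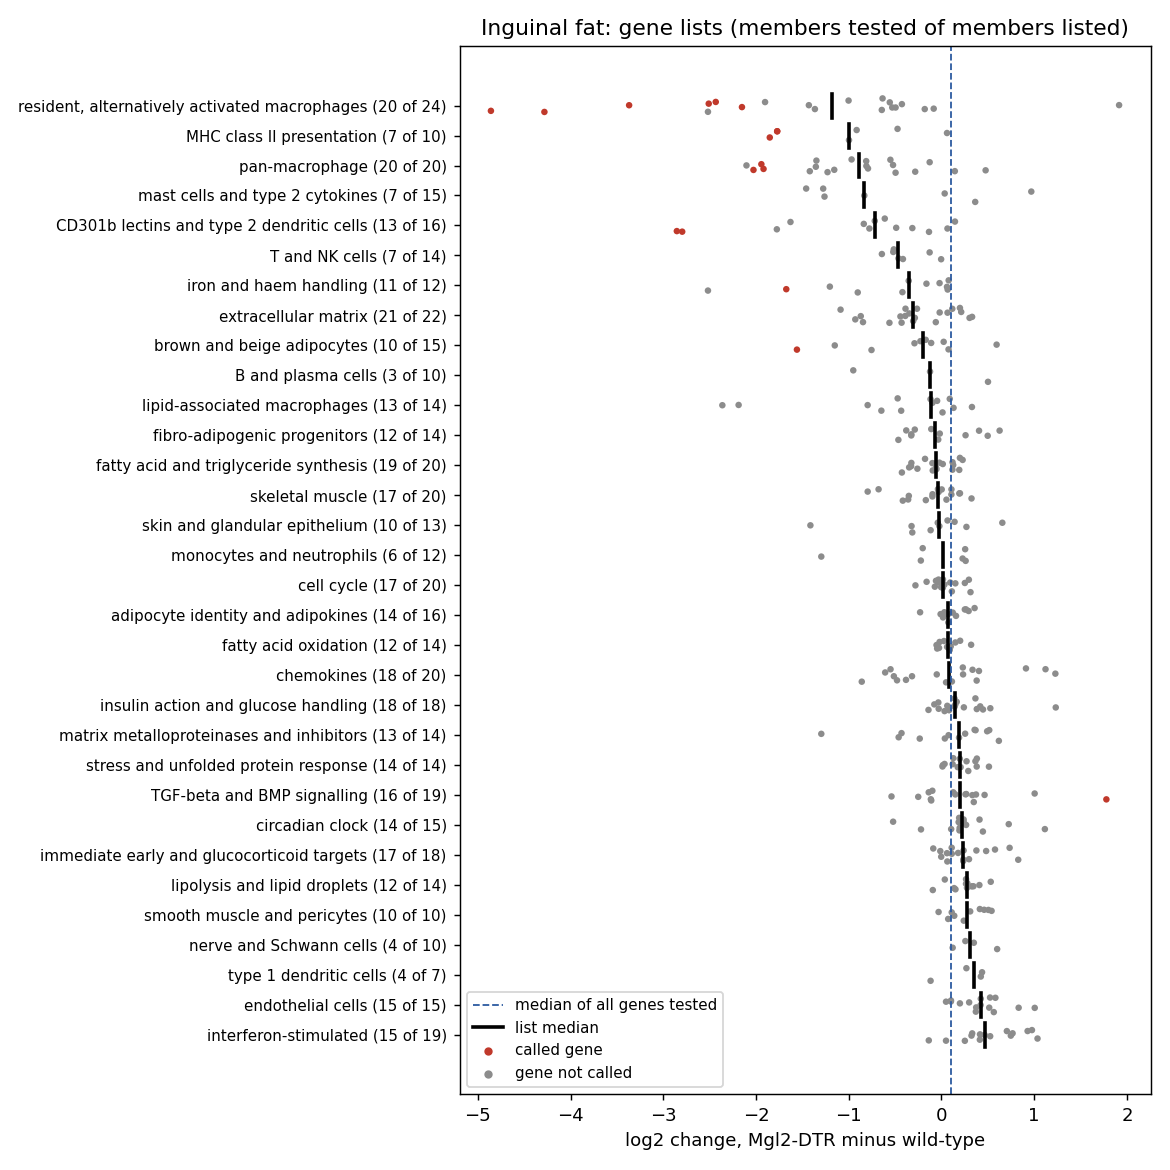
Log2 change (Mgl2-DTR minus wild-type) of the tested members of each gene list with at least 3 of them, ordered by list median. Each point is a gene, red where called, black bars are list medians, and the dashed line is the median of all genes tested (0.10). Resident macrophage genes lie lowest, at a median of -1.18, with Arg1 alone at the far right, and interferon-stimulated genes lie highest at 0.47.

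Among genes of adipocytes, those of identity stood nearly level while 1 gene linked to brown and beige fat fell. Cidea, a lipid droplet protein, stood at 7.21 and 6.82 in Mgl2-DTR fat, against 8.72 and 8.43 in wild-type fat (-1.56, SE 0.19; limma adjusted p = 0.00996). Cox8b, a mitochondrial subunit of heat-producing and muscle tissue, stood at 8.08 and 7.54 in Mgl2-DTR fat, against 8.99 and 8.93 in wild-type fat (-1.15, SE 0.20; adjusted p = 0.0854). Both genes were higher in the muscle-bearing array of Mgl2-DTR fat and in the muscle-poor array of wild-type fat. Cidea was called without Mgl2-DTR replicate 1 and missed the threshold without any other inguinal array, at an adjusted p of 0.0666 to 0.101. Of 15 brown and beige genes 10 were tested and 7 were lower, with a median of -0.20. The mean of the list was 6.99 and 6.48 in Mgl2-DTR fat, against 7.01 and 7.18 in wild-type fat. It was thus higher on the muscle-bearing array of each genotype, and the part of muscle RNA in this was not tested. Prdm16, a regulator of this programme, had a change of 0.59 in the opposite direction and was not called.

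The 14 tested genes of adipocyte identity had a median change of 0.073, 12 were higher (6 above the median of all genes) and none was called, and after cyclic loess 7 of the 14 were higher. Adipoq, the gene for adiponectin, stood at 11.18 and 11.16 in Mgl2-DTR fat, against 11.08 and 10.94 in wild-type fat. Lep, the gene for leptin, stood at 12.24 and 12.15 in Mgl2-DTR fat, against 11.82 and 11.98 in wild-type fat (0.29; adjusted p = 0.778). Genes of fatty acid and triglyceride synthesis had a median of -0.059 over 19 tested, those of fatty acid oxidation 0.074 over 12 and those of lipolysis 0.27 over 12, and none was called. The median of fatty acid oxidation changed sign after cyclic loess, to -0.027. Adipoq was named after its values were seen.

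Insulin signalling held 1 gene with a larger difference. Irs2, an adaptor below the insulin receptor, stood at 9.21 and 9.59 in Mgl2-DTR fat, against 8.11 and 8.22 in wild-type fat, and was not called (1.23, SE 0.27; adjusted p = 0.236). The other adaptor Irs1 was at 9.54 and 9.11 in Mgl2-DTR fat, against 9.56 and 9.15 in wild-type fat, with overlapping groups. The receptor gene Insr had a change of 0.42 and Slc2a1, a glucose transporter gene, of 0.53. Of 18 genes on this list all were tested, 14 were higher (11 above the median of all genes) and none was called, with a median of 0.15. Irs1 was named after its values were seen.

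Among the 12 higher genes ranked next by p were 3 that are known in mice to vary with expansion of fat. Mest stood at 9.29 and 9.28 in Mgl2-DTR fat, against 8.04 and 7.23 in wild-type fat (1.65, SE 0.37; limma adjusted p = 0.236). Sfrp5, a secreted inhibitor of Wnt signalling, stood at 8.23 and 8.0 in Mgl2-DTR fat, against 6.86 and 6.86 in wild-type fat (1.26, SE 0.28; adjusted p = 0.236). Bmp3 stood at 9.50 and 9.21 in Mgl2-DTR fat, against 8.45 and 8.25 in wild-type fat (1.01, SE 0.21; adjusted p = 0.236). In each the genotypes were apart, as they were by selection for every gene in this ranking, and none was called. The remaining higher genes were Cyp4f14, Tenm3, Gadd45b, Gal3st2b, Ooep, Ecscr, Stat2, Irs2 and Mycbp2, with changes of 0.64 to 1.23 and adjusted p of 0.0854 to 0.236. Cyp4f14 and Tenm3 lay under the filter level in both genotypes.

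Of the 12 lower genes ranked next, Ms4a7, a membrane protein gene of macrophages, just missed the threshold at 5.56 and 6.12 in Mgl2-DTR fat, against 8.45 and 8.52 in wild-type fat (-2.65, SE 0.41; limma adjusted p = 0.051). Cd33, a lectin of myeloid cells, stood at 6.83 and 7.26 in Mgl2-DTR fat, against 8.71 and 8.22 in wild-type fat (-1.42, limma adjusted p = 0.0696). Pla2g2d, a secreted phospholipase, stood at 6.70 and 7.03 in Mgl2-DTR fat, against 8.57 and 7.90 in wild-type fat (-1.37; adjusted p = 0.0862). Beside Csf1r, Cd163 and Cox8b, the others were Gbgt1, Alox5, P2ry12, Chp2, Tpsb2 and Cpa3, with changes of -1.43 to -0.80. A second probe of Alox5 had a change of -0.27, so its probes disagree in size.

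Tpsb2 and Cpa3 are proteases of mast cells. Cpa3 stood at 8.88 and 9.57 in Mgl2-DTR fat, against 10.48 and 10.49 in wild-type fat (-1.26; limma adjusted p = 0.163). Tpsb2 stood at 7.17 and 7.68 in Mgl2-DTR fat, against 8.69 and 8.71 in wild-type fat (-1.28; adjusted p = 0.148). Kit, the growth factor receptor of mast cells that other cells also express, stood at 7.96 and 7.42 in Mgl2-DTR fat, against 7.38 and 7.27 in wild-type fat (0.36; adjusted p = 0.801). The proteases and Kit thus stood on opposite sides. Of 15 genes of mast cells and type 2 cytokines 7 were tested, 4 were lower (5 after either scaling) and none was called, with a median of -0.83. Kit was named after its values were seen.

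Matrix genes differed in sign, and none was called. Col1a1, a fibrillar collagen, stood at 10.83 and 10.74 in Mgl2-DTR fat, against 12.01 and 11.74 in wild-type fat (-1.09; limma adjusted p = 0.236). Col1a2 stood at 10.33 and 10.45 in Mgl2-DTR fat, against 11.45 and 11.18 in wild-type fat (-0.93; adjusted p = 0.165), and a second probe gave -1.20. Col4a1, a basement membrane collagen, stood at 10.27 and 10.34 in Mgl2-DTR fat, against 9.94 and 10.01 in wild-type fat (0.33; adjusted p = 0.801; named after its values were seen). Of 22 matrix genes 21 were tested, 15 were lower (16 after cyclic loess) and none was called, with a median of -0.31. Of 12 tested genes of fibro-adipogenic progenitors, the stromal cells that make much of this matrix, 8 were lower and none was called, with a median of -0.072.

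Genes of endothelial cells, which line vessels, were higher throughout their list. All 15 were higher, against 70.7% of all genes tested, and 12 lay above the median of all genes. Of the 15, 10 were apart and higher, against 36.5% of all genes, with a list median of 0.42 and none called. After quantile normalization 14 of the 15 were higher, and after cyclic loess 13. The list's mean was 9.22 and 8.80 in Mgl2-DTR fat, against 8.60 and 8.57 in wild-type fat. Erg, a transcription factor of endothelium, had the smallest p on the list at 8.81 and 8.35 in Mgl2-DTR fat, against 7.84 and 7.65 in wild-type fat (0.83, SE 0.27; limma adjusted p = 0.609). Cldn5, a tight junction protein, stood at 8.70 and 7.89 in Mgl2-DTR fat, against 7.63 and 6.95 in wild-type fat (1.01; adjusted p = 0.7). The median was 0.26 in the muscle-poor pair and 0.55 in the muscle-bearing pair, against 0.11 and 0.086 over all genes. With 10 of the 15 apart and higher, the shared sign of the list median was fixed in advance. Genes of smooth muscle and pericytes, the cells around vessels, had a median of 0.28 with 9 of 10 higher, 8 of them above the median of all genes, and none called.

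Interferon-stimulated genes were also higher without a call. Of 19 listed genes 15 were tested, 14 were higher (13 after either scaling), 13 lay above the median of all genes, and the median was 0.47. Of the 15, 12 were apart and higher, against 36.5% of all genes, and after cyclic loess 10 were, against 18.9% of all genes. Stat2, part of the factor that interferon signalling activates, stood at 9.52 and 9.80 in Mgl2-DTR fat, against 8.81 and 8.98 in wild-type fat (0.77, SE 0.16; limma adjusted p = 0.236). Cxcl10, an interferon-induced chemokine, stood at 7.39 and 7.89 in Mgl2-DTR fat, against 6.74 and 6.47 in wild-type fat (1.04; adjusted p = 0.405). Usp18, a brake on interferon signalling, had a change of 0.93. The list's median was 0.79 in the muscle-poor pair and 0.19 in the muscle-bearing pair.

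Genes of incoming cells did not move as one. The 6 tested genes of monocytes and neutrophils had a median change of 0.013, and each of them was lower in Mgl2-DTR replicate 1 than in Mgl2-DTR replicate 2. Ccr2, the receptor that brings monocytes into tissue, stood at 6.16 and 7.74 in Mgl2-DTR fat, against 7.26 and 7.05 in wild-type fat, so the Mgl2-DTR arrays lay on either side of the wild-type ones. Ligands for Ccr2 were higher in both Mgl2-DTR arrays. Ccl2 stood at 8.68 and 10.01 in Mgl2-DTR fat, against 7.81 and 8.63 in wild-type fat (1.12; limma adjusted p = 0.717), and Ccl7 stood at 9.04 and 10.25 in Mgl2-DTR fat, against 8.24 and 8.59 in wild-type fat (1.23; adjusted p = 0.586). Of 18 tested chemokine genes 10 were higher, 9 of them above the median of all genes, and none was called. Of 14 listed T and NK cell genes 7 were tested, and all 7 were lower, against 29.3% of all genes. Of these 3 were apart and lower, against 10.4% of all genes. Their changes ran from -0.64 to -0.0033, with a median of -0.46 and none called. The Mgl2-DTR means of Cd4, Cd8b1 and Cd3g lay under the filter level. Ccr2 was named after its values were seen.

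**Figure D3:**
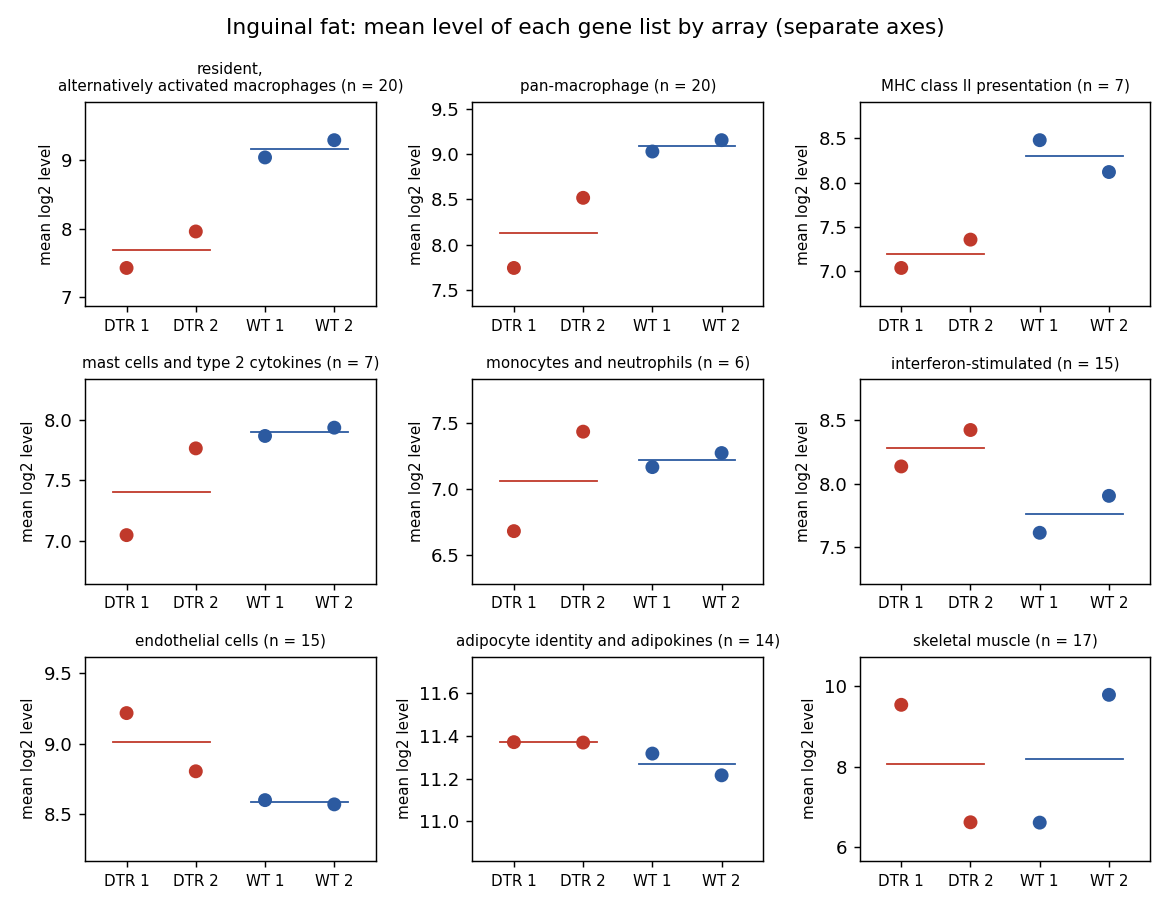
Mean log2 level of 9 gene lists on each array, Mgl2-DTR replicates 1 and 2 in red and wild-type replicates 1 and 2 in blue, with a line at each group mean and a separate vertical axis per panel (n is the number of genes tested). Resident macrophage and MHC class II genes separate the genotypes, monocyte and neutrophil genes have the Mgl2-DTR arrays on either side of the wild-type ones, and skeletal muscle genes mark 1 array of each genotype.

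The calls were set against the split in muscle RNA by taking the pairs of arrays separately. Among the 24 genes that fell, the change ran from -4.63 to -0.92 in the muscle-poor pair. In the muscle-bearing pair it ran from -5.09 to -1.21. Called genes were apart between the groups, so that all 24 were lower in both pairs was fixed in advance. The pairs could differ only in the size of the change. The median was -1.91 in the muscle-poor pair and -2.23 in the muscle-bearing pair, and 19 of the 24 had the larger fall in the muscle-bearing pair. In 18 of the 24 the level was lower in Mgl2-DTR replicate 1 than in Mgl2-DTR replicate 2. Cidea went the other way, at -1.90 in the muscle-poor pair and -1.21 in the muscle-bearing pair. Itgb8 was higher by 1.50 in the muscle-poor pair and by 2.06 in the muscle-bearing pair. A fit with the mean muscle level as a covariate called 27 genes, 23 of the 25 among them. Leaving out both muscle-bearing arrays leaves 1 array per genotype, and limma then called 0 genes, with 479 at an unadjusted p under 0.05.

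**Figure D4:**
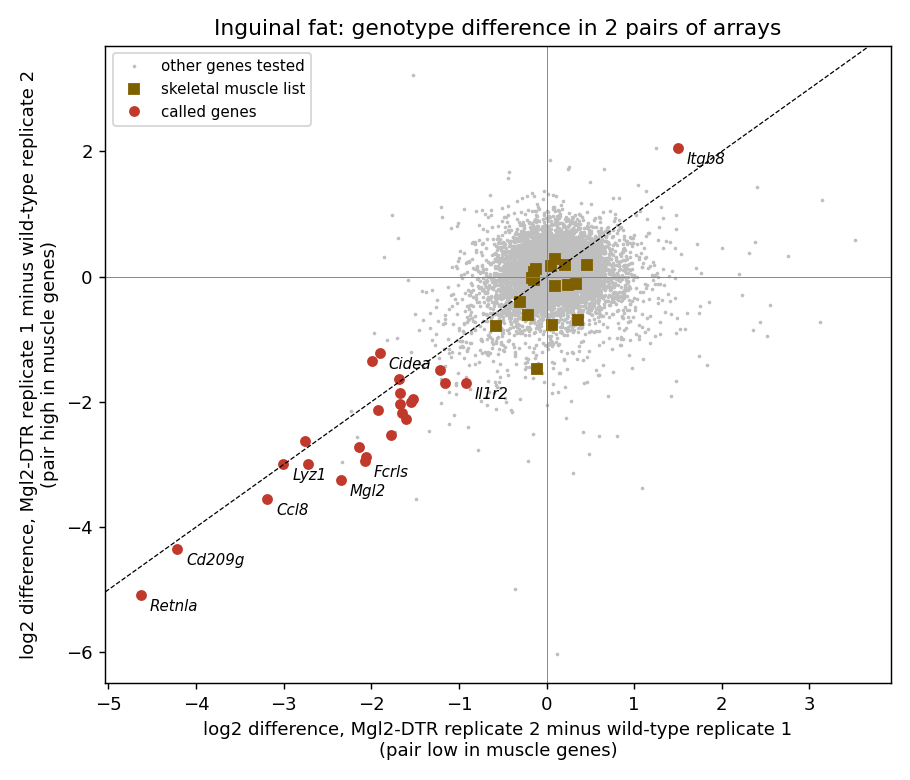
Log2 difference between genotypes in the muscle-bearing pair (vertical) against the muscle-poor pair (horizontal) for every gene tested, grey, with the skeletal muscle list as brown squares and the called genes as red circles. The dashed line marks equal values. The called genes lie along that line, from Retnla at the lower left to Itgb8 at the upper right.

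The same 24 genes were also lower in epididymal fat of Mgl2-DTR mice, the visceral pad by the testis. Of all 12710 genes tested, 6223 were lower there. In epididymal fat 23 of the 24 were apart and lower, against 14.7% of all genes. Called there were 4 (Mgl2, Retnla, Cd209g and Fcrls), of 4 calls among all genes (0.0315%). Cidea and Il1r2 lay under the filter level on all 4 epididymal arrays, so their part in these counts says little. Il1r2 stood at 4.32 and 4.09 in Mgl2-DTR epididymal fat, against 4.60 and 4.47 in wild-type epididymal fat. The median change of the 24 was -1.98 in inguinal and -1.18 in epididymal fat, and 23 of the 24 had the larger fall in inguinal fat, where they had been chosen for passing the test. Mgl2 was the exception, at -2.80 in inguinal and -3.12 in epididymal fat. The test of the difference itself, inguinal minus epididymal change, called 0 genes (0%), with 364 at an unadjusted p under 0.05 (2.86%) and a smallest adjusted p of 0.341. That count rests on epididymal arrays, since it was 123 without epididymal Mgl2-DTR replicate 1 and 104 without epididymal wild-type replicate 2.

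Itgb8 and Cidea had small changes in epididymal fat. The change of Itgb8 was 1.78 (SE 0.20) in inguinal and 0.12 (SE 0.20) in epididymal fat, a difference of 1.66 (limma adjusted p = 0.905). That of Cidea was -1.56 (SE 0.19) in inguinal and -0.11 (SE 0.19) in epididymal fat, a difference of -1.45 (adjusted p = 0.995). Its epididymal level lay under the filter in all 4 arrays, at 4.71 and 4.71 in Mgl2-DTR and 4.64 and 4.99 in wild-type fat, so a change could not be seen there. Gadd45b, a stress-induced gene, had changes of opposite sign, 0.83 in inguinal and -0.65 in epididymal fat, and this difference of 1.47 missed the threshold (adjusted p = 0.341).

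**Figure D5:**
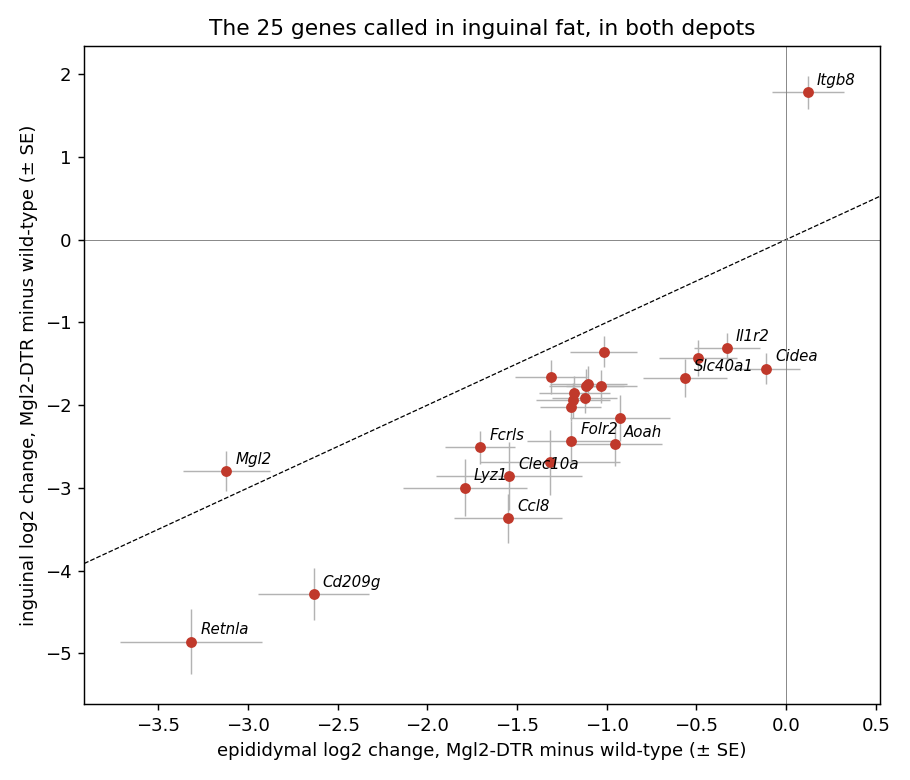
Log2 change (Mgl2-DTR minus wild-type) in inguinal fat (vertical) against epididymal fat (horizontal) for the 25 genes called in inguinal fat, with bars of 1 SE. The dashed line marks equal changes. Mgl2 lies above the line, Cidea and Itgb8 lie near 0 on the epididymal axis, and the others lie below the line.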

How the data were processed

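RNA was measured on an Affymetrix mouse gene array in whole inguinal fat, epididymal fat and liver, after DNase treatment, column purification and biotin labelling, per the labels' protocols. Deposited values are on a log2 scale with 1 column for each sample. The submitters' processing notes name limma, and how background, normalization and probe summaries were handled is not given in the sources used here. Scanner files were not analysed here.

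Of 41345 probes, 23521 carry 1 gene symbol in the platform annotation, 1814 several and 16010 none that is listed. Each of the 22180 genes was represented by its brightest probe, by the mean of the 12 arrays. Of the Entrez identifiers 23328 matched a RefSeq table (GRCm38.p6), which changed 0 symbols. Testing required a mean above 5.71, the median over all single-symbol probes, in at least 1 tissue.

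The model, in limma 3.58.1 under R 4.3.3, had 6 group means over 12 arrays (6 residual and 3.35 prior degrees of freedom), two-sided, with Benjamini-Hochberg adjustment over 12710 genes. The code was tested on simulated data. An exact permutation test of 2 against 2 arrays cannot go below 0.333 and was not used. Changes are Mgl2-DTR minus wild-type with their SE.

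The members and the 33 gene lists were chosen with earlier results of these data known. Genes named are the called genes, then 12 lower and 12 higher genes with the smallest p among those apart with an absolute change of at least 0.58 (2 predicted genes or small RNAs skipped), and of each list its called members or up to 4 with the smallest p. Names outside this rule were chosen after their values were seen, here or where each stands in the text: Acta1, Clec4a1, Clec4a3, H2-DMa, Kmo, Mir511, Prdm16, Spi1 and Tgfb2. Alternatives were filters, the next probe, quantile normalization, cyclic loess, a trended and robust prior, array weights, a replicate block, a muscle covariate, fewer tissues, and arrays left out.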

Additional observations from a re-analysis of the deposited data

How the results depend on the processing

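Over 18 alternatives none of the 25 called genes changed sign, but many of these fixed that in advance. Other filters, the next probe, priors, weights, thresholds, blocks and fewer tissues left the change of each called gene as it was. Leaving out arrays could not turn the sign of genes whose groups were apart. Only the scalings and the muscle covariate were free to do so. The mean muscle level was nearly balanced between the genotypes, so that covariate could move the changes only little. The count of calls stayed at 18 to 35 under other filters, probes, scalings, a trended prior, a muscle covariate and a looser threshold. It was 55 with array weights, 4 with the inguinal arrays alone (1370 genes at an unadjusted p under 0.05), 9 with both fat depots and no liver, and 0 without both muscle-bearing arrays, where 1 array per genotype was left. Leaving out 1 inguinal array in turn gave 6 to 29 calls, lowest without wild-type replicate 2, a fit that assumes the lone sample varies like the other groups. The replicate numbers are not stated to pair the samples, and the differences between replicates of the genotypes correlated at -0.12. With a replicate block 26 genes were called, 23 of them shared, and with the crossed pairing, added after the data were seen, 24. Genes that differed between depots numbered 0 to 123 over all arrays left out in turn. The cause of these differences was not tested.

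Of 2507 alternative values for 142 named genes, 2309 kept direction and side of the threshold, 123 fell short of it, 47 passed it and 28 changed sign, in 19 genes that were not called. After cyclic loess Acadl was -0.0065 and Acadvl -0.0033. With the next probe Irf8 was 0.23 and Ryr1 0.26. Without both muscle-bearing arrays Acadl was -0.075, Csf3r 0.31, Dsp 0.31, Egr1 -0.023, F3 -0.089, Fosb -0.14, Mbp -0.028, Plin1 -0.0083 and Trp63 0.23. Leaving out 1 inguinal array in turn gave ranges across 0 for 12 genes, namely Cd79b (-0.38 to 0.14), Csf3r (-0.70 to 0.25), Cxcr2 (-0.18 to 0.70), Dsp (-3.29 to 0.46), Irf8 (-0.31 to 0.077), Ly6c2 (-0.051 to 0.56), Mb (-0.21 to 0.59), Myl1 (-0.86 to 0.026), Ncam1 (-0.089 to 0.33), Ryr1 (-0.21 to 0.010), Tnni2 (-2.67 to 1.07) and Trp63 (-0.71 to 0.068). Of the shares of genes that were apart, 10.4% lower and 36.5% higher became 16.0% and 24.9% after quantile normalization and 20.0% and 18.9% after cyclic loess.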

Other observations

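Of the 25 genes that were at least 2-fold higher with the groups apart, 12 were highest in Mgl2-DTR replicate 2 and the others in Mgl2-DTR replicate 1. The 4 described here are in no gene list and were chosen after their values were seen, so they stand for no group. Lcn2, an iron-sequestering protein, stood at 7.62 and 9.77 in Mgl2-DTR fat, against 6.25 and 7.04 in wild-type fat (2.05, SE 0.81; limma adjusted p = 0.683). Slfn4 stood at 6.80 and 8.99 in Mgl2-DTR fat, against 6.24 and 6.47 in wild-type fat (1.54; adjusted p = 0.672), and Ppbp, a platelet chemokine, at 6.47 and 8.50 in Mgl2-DTR fat, against 6.11 and 5.92 in wild-type fat (1.47; adjusted p = 0.662). In these 3 genes the Mgl2-DTR arrays differed from each other by more than the genotype means did. By contrast Apod, which encodes a lipid carrier, agreed within genotypes, at 10.99 and 11.05 in Mgl2-DTR fat, against 9.99 and 9.95 in wild-type fat (1.06; adjusted p = 0.683).

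Toll-like receptors, which sense microbial products, were mostly lower and none was called. The family is not 1 of the gene lists, and it and the receptors named here were chosen after their values were seen. Of 10 tested, 8 were lower, against 29.3% of all genes, and 5 of these were apart, against 10.4% of all genes apart and lower. Tlr1 (-0.084) and Tlr13 (-0.12) count among the lower ones, with overlapping groups. Tlr8 stood at 6.10 and 6.76 in Mgl2-DTR fat, against 7.65 and 8.50 in wild-type fat (-1.65, SE 0.51; limma adjusted p = 0.591). Tlr5, a receptor for flagellin, stood at 7.24 and 7.27 in Mgl2-DTR fat, against 8.21 and 8.53 in wild-type fat (-1.12, SE 0.24; adjusted p = 0.236). Tlr4, the endotoxin receptor, stood at 7.69 and 7.87 in Mgl2-DTR fat, against 7.66 and 7.77 in wild-type fat.

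The array also holds a probe for Mir511, a microRNA gene that lies within Mrc1 in mice. Mir511 stood at 5.03 and 5.53 in Mgl2-DTR fat, against 6.19 and 6.87 in wild-type fat (-1.25, SE 0.31; limma adjusted p = 0.402), and the change of Mrc1 was -1.36, so host and microRNA gene were lower together. The probe reads RNA of the gene and does not measure the mature microRNA. Its mature form in RefSeq, build GRCm38.p6, is shown with the seed (bases 2 to 8) in capitals.
mmu-miR-511-3p, chr2:14261051-14261072, plus strand: aAUGUGUAgcaaaagacaggau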
